A study of Homo sapiens with 15 samples.

Results

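Lysosomes are the acid organelles in which hydrolases break down proteins, complex lipids and sugar chains, and cells under lipid load use them to digest lipid droplets as well. The genes examined here are 44 genes of that organelle, and they were followed through 15 cultures labelled as the hepatoma line HepG2. They comprise 11 proteases, 8 genes of lipid handling, 13 glycosidases and related sugar-chain enzymes, 9 membrane and proton pump proteins and 3 regulators. The members were listed by gene symbol, and each matched 1 row of the deposited table of 63241 genes. With a minimum of 1 TPM (a length-normalised share of a library's transcripts) in at least 3 libraries, 43 of the 44 were tested among 12950 genes. The exception was CTSS, a cysteine protease, at 0 to 0.61 TPM.

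The cultures formed 5 groups of 3 biological replicates. NC received neither fatty acids nor the compound under study. FFA received free fatty acids at 500 µM. FCL, FCM and FCH were given the same fatty acids plus 25, 50 and 100 µM of C3R. This compound, cyanidin-3-rutinoside, is a plant pigment of the anthocyanin class found in dark berries. The comparisons ask how the lysosomal genes changed under the fatty acids and whether C3R, studied for lowering lipid in this model, shifted them. The labels name 1 cell line for all groups and do not say how separately the replicates were grown, so p-values reflect no more than the variation among these 15 cultures.

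The labels call the cells hepatocytes of the liver, but several liver markers were near 0 and the others were low. Of 10 hepatocyte markers, 5 reached the minimum for testing. Albumin (ALB) lay between 0.0947 and 1.68 TPM, transthyretin (TTR) reached at most 0.32 TPM, apolipoprotein B (APOB) at most 0.09 TPM, and alpha-fetoprotein (AFP), which hepatoma cells usually make, was listed at 0 in 12 of the 15 libraries and at most 0.13 TPM elsewhere. FGB reached at most 0.41 TPM and HNF4A at most 0.64 TPM. Other markers of the list were at 1 TPM or more in all 15 libraries. These were APOA1 (6.18 to 14.7 TPM), APOA2 (4.18 to 17.8), SERPINA1 (6.95 to 14.2) and TF (2.71 to 6.07). The summed markers came to between 29.6 and 47.5 TPM. The cultures are therefore called by their group names below. Libraries had between 11268 and 12293 genes at 1 TPM or more. TPM carry no depth, so the number of reads behind each value cannot be given. In FCH replicate 3 the values had been shifted by a batch correction that no sample label mentions. The other 14 libraries carried 1 shared offset in each gene it touched. By a model fitted to the deposited values, the correction kept an estimated 41.6% of the deviation of FCH replicate 3 from the other 2 FCH libraries. It was applied to 43 of the 44 members, so the spread within FCH, and each SD given for FCH, can be too small. Counts of genes in which FCH did not overlap another group can therefore be too high.

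As background, many lysosomal genes are switched on together by TFEB and TFE3, related transcription factors that the kinase mTORC1 holds in the cytosol while nutrients are plentiful. When mTORC1 is released from the lysosome or the lysosome is damaged, they enter the nucleus and bind a short palindrome in the promoters of lysosomal genes, whose core is CACGTG and whose extended form includes TCACGTGA. Promoter windows from RefSeq (GRCh38.p14, 250 bases before to 50 after the annotated start) were found for 32 of the 44 members. The core was in the window of 9 of these 32 (28.1%) and of 8.77% of the 27305 genes with a window. The extended form, which contains the core, was in 5 of 32 (15.6%) and in 1.18% of all genes with a window. Both motifs read the same on either strand, so 1 search covers both. Among the members with a window, the core was in 4 of the 14 that rose under fatty acids (28.6%) and in 5 of the 18 tested members that were not called (27.8%). The extended form was in 1 of those 14 and 4 of those 18. The windows are shown for CTSD, the member with the smallest p-value under fatty acids, and for the 4 members with the extended form whose p-values were smallest, so that the spacing of the motif can be compared. Capitals mark each CACGTG, and positions count back from the last base before the start, which is -1.
CTSD: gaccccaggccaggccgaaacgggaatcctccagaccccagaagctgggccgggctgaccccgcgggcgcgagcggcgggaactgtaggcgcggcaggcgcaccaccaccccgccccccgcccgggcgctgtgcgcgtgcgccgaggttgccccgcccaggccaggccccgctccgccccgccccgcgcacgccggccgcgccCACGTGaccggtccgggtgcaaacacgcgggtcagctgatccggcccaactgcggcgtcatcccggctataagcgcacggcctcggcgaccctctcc
CTSA: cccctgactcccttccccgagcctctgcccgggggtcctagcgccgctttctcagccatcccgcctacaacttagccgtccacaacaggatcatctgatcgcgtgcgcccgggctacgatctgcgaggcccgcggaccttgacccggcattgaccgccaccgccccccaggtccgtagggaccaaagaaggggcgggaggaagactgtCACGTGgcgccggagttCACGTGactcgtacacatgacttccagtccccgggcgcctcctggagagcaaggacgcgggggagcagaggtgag
LAMP1: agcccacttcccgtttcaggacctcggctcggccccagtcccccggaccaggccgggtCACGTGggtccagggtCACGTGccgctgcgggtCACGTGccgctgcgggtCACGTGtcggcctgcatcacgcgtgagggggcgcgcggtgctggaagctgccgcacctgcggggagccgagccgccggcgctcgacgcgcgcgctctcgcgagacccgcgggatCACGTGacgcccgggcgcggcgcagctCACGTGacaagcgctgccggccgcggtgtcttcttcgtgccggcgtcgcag
MCOLN1: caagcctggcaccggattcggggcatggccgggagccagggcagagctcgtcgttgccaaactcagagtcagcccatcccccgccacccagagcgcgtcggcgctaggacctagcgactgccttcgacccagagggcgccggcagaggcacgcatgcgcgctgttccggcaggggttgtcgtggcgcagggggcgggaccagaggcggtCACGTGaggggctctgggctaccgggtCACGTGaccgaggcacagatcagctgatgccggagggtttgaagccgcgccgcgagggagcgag
GAA: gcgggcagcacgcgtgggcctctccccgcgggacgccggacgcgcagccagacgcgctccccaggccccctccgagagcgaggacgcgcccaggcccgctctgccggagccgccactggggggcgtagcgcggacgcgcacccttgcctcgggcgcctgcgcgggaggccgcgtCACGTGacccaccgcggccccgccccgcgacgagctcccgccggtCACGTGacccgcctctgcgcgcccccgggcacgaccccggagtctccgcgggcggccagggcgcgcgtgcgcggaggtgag
The CTSD window (chr11:1763878-1764177, minus strand) held 1 core, beginning at -47. The CTSA window (chr20:45891085-45891384, plus strand) held 2, beginning at -42 and -25. LAMP1 (chr13:113296989-113297288, plus strand) held 6, 4 of them in a row between -192 and -142. MCOLN1 (chr19:7522374-7522673, plus strand) held 2, at -41 and -14, and GAA (chr17:80101331-80101630, plus strand) held 2, at -76 and -31. Of these 5 genes, CTSD and CTSA rose under fatty acids, and LAMP1, MCOLN1 and GAA did not pass the test. A match is a run of letters in the reference and was not measured as a bound site here.

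Under the fatty acids, 18 of the 43 tested lysosomal genes rose and 0 fell. Among them were CTSD, the main aspartyl protease of the lysosome, CD68, a heavily glycosylated membrane protein, and GRN, the precursor of the granulins. Over all genes tested in FFA against NC, 5.47% rose and 1.91% fell (limma on log2(TPM + 1), Benjamini-Hochberg adjusted p under 0.05). In a fit limited to the 7613 genes with a mean of at least 5 TPM, 9.29% rose and 2.56% fell, with a median log2 change of 0.10. The median change of the members was 0.39 on the log2 scale, against 0.06 for all genes tested, and 39 of the 43 were above 0. All 3 FFA libraries exceeded all 3 NC libraries in 31 members (19.7% of all genes tested did so), and the reverse held in 1 member, SGSH (9.95% of all genes). The 43 genes together held 0.547% ± 0.0173 of the TPM in NC (SD, n = 3) and 0.856% ± 0.0712 in FFA (SD, n = 3). The gain of 3093 TPM was concentrated in a few abundant genes. CTSD gave 36.5% of it, and the 5 genes with the most gain, CTSD, GRN, PSAP, CD68 and CTSL, gave 72.5%. In bulk RNA, more cells of a kind and more RNA per cell cannot be told apart.

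**Figure D1:**
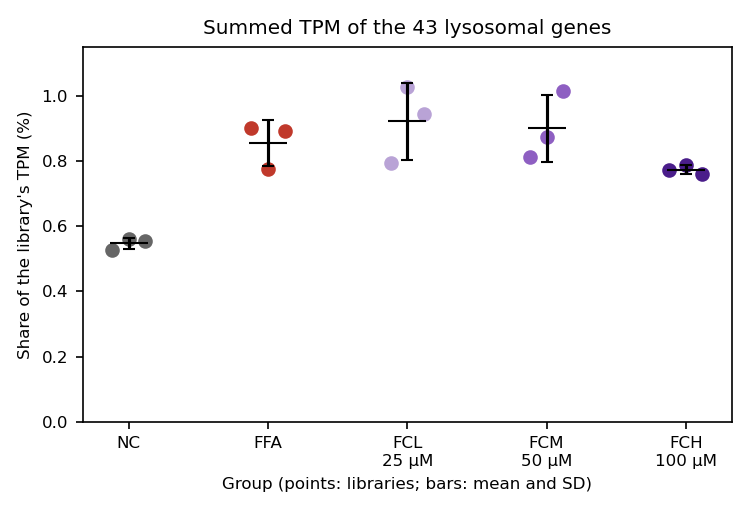
Summed TPM of the 43 tested lysosomal genes as a percent of each library's total (y axis, from 0), by group (x axis). Points are libraries and bars the mean and SD of 3. The 3 NC libraries lie between 0.527% and 0.56%, and each of the 12 libraries given fatty acids lies above them, from 0.759% to 1.03%.

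The proteases moved unevenly. Of 10 tested, 6 rose: CTSD, CTSL, LGMN, TPP1, CTSA and CTSF. CTSD was at 646, 701 and 658 TPM in NC and at 1901, 1607 and 1885 TPM in FFA. The groups were far apart, with FFA higher by 1.42 on the log2 scale (SE 0.127, adjusted p = 1.12e-05 by limma). CTSL, a cysteine protease, was at 97.6, 98.8 and 110 TPM in NC and at 224, 171 and 241 TPM in FFA. Its log2 change was 1.03 (SE 0.142, adjusted p = 0.000385 by limma), with FFA replicate 2 the lowest of its group. LGMN, the asparaginyl endopeptidase legumain that processes other cathepsins, was at 41.6, 53.2 and 53.6 TPM in NC and 82.8, 78.6 and 80.1 TPM in FFA, a log2 change of 0.70. The remaining 3 were TPP1, a tripeptidyl peptidase, with a log2 change of 0.73, CTSA, the carboxypeptidase that keeps NEU1 and GLB1 stable, with 0.65, and CTSF with 0.44 at an adjusted p of 0.0495 by limma. The 4 that did not pass the test included the abundant exopeptidase CTSZ, at a group mean of 541 TPM in NC and 604 TPM in FFA, and CTSB, at 251 and 324 TPM. CTSC (log2 change 0.06) and the aminopeptidase CTSH (-0.29, at 2.65 to 5.00 TPM in these libraries) were the others. The most abundant protease in NC, CTSD, thus had the largest log2 change of its class, and CTSZ, next to it in NC, had one of 0.16.

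Among the 8 genes of lipid handling, 2 rose. NPC2, which binds cholesterol in the lysosomal lumen and passes it to NPC1, was at 164, 159 and 169 TPM in NC and 277, 256 and 274 TPM in FFA. The groups were separate, and the log2 change was 0.71 (SE 0.109, adjusted p = 0.000878 by limma). PSAP, the precursor of the saposins that help hydrolases reach their lipids, was at 688, 731 and 733 TPM in NC and 1148, 1013 and 1146 TPM in FFA, up by 0.62 on the log2 scale (SE 0.125, adjusted p = 0.00694 by limma). ARSA, which removes sulfate from sulfatide, was at 16.3, 16.9 and 17.1 TPM in NC and 25.8, 20.2 and 23.7 TPM in FFA. Although the groups did not overlap, its log2 change of 0.44 had an adjusted p of 0.0787 by limma. NPC1, the membrane partner of NPC2, spread widely: 22.5, 29.3 and 24.9 TPM in NC and 42.3, 27.8 and 45.6 TPM in FFA, with FFA replicate 2 inside the NC range (log2 change 0.55, adjusted p = 0.203 by limma). SMPD1, the acid sphingomyelinase, and LIPA, the acid lipase that splits cholesteryl esters and triglycerides, had log2 changes of 0.39 and 0.36, neither past the threshold. ASAH1, the acid ceramidase, was at -0.09 and PPT1, which removes fatty acyl chains from proteins, at -0.02.

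Of the 13 glycosidases and related enzymes, 6 rose: NEU1, MANBA, GLB1, HEXA, GLA and GUSB. NEU1, the sialidase, was at 18.6, 19.2 and 18.7 TPM in NC and at 40.5, 33.0 and 49.9 TPM in FFA. The narrow NC range lay far below every FFA library, and the log2 change was 1.07 (SE 0.157, adjusted p = 0.000602 by limma). MANBA, the beta-mannosidase, was at 7.88, 7.40 and 8.23 TPM in NC and 15.0, 12.0 and 13.7 TPM in FFA, a log2 change of 0.72. GLB1, the beta-galactosidase, was at 62.7, 61.4 and 57.4 TPM in NC and 96.0, 85.7 and 87.8 TPM in FFA, a log2 change of 0.56. The alpha-galactosidase GLA (0.60), the hexosaminidase subunit HEXA (0.52) and the beta-glucuronidase GUSB (0.49) followed. GUSB has pseudogene copies in the genome, and how reads were shared between them is not given in the sources used here. The other 7 did not pass the test, with log2 changes of 0.30 for the alpha-mannosidase MAN2B1, 0.26 for IDUA, 0.24 for the glycogen-digesting GAA, 0.22 for NAGLU, 0.15 for FUCA2, 0.09 for FUCA1 and -0.38 for SGSH. IDUA, NAGLU and SGSH all act on heparan sulfate. SGSH was at 22.7, 23.7 and 22.8 TPM in NC and 18.5, 16.6 and 17.7 TPM in FFA, without overlap and in the opposite direction to most members (adjusted p = 0.139 by limma). SGSH was called lower in 5 of 11 alternative settings, median-of-ratios rescaling and quantile normalisation among them, and without FCM replicate 3.

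Of the 9 membrane and proton pump proteins, CD68 and SCARB2 rose. CD68 was at 58.9, 52.8 and 61.5 TPM in NC and at 206, 139 and 197 TPM in FFA. This was the largest log2 change among the members, 1.61 (SE 0.213, adjusted p = 0.000289 by limma). SCARB2, a membrane protein also known as LIMP-2, was at 8.19, 6.83 and 9.15 TPM in NC and 18.6, 11.7 and 14.3 TPM in FFA, a log2 change of 0.79 (adjusted p = 0.0297 by limma). ATP6AP1, an accessory subunit of the proton pump, was at 237, 262 and 245 TPM in NC and 332, 285 and 330 TPM in FFA. Its log2 change of 0.34 had an adjusted p of 0.115 by limma. The structural proteins of the membrane had log2 changes of 0.48 for LAMP2, 0.20 for LAMP1 and 0.10 for CD63, none past the threshold. The calcium channel MCOLN1 was at 0.27, and the pump subunits ATP6V1H and ATP6V0D1 at 0.20 and 0.15.

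CD68 is best known from macrophages, so their markers were read beside it. Of 14 other macrophage markers, 7 (AIF1, C1QA, C1QB, CD163, MARCO, TYROBP and VSIG4) were listed at 0 in all 15 libraries, and PTPRC, the pan-leukocyte antigen, reached at most 0.01 TPM. CSF1R, the receptor of a macrophage growth factor, was the 1 marker tested. It was at 2.25, 1.38 and 1.46 TPM in NC and 4.77, 3.82 and 3.17 TPM in FFA and rose with a log2 change of 0.87 (adjusted p = 0.0464 by limma). The summed markers came to 1.72 to 2.76 TPM in NC, 4.24 to 5.03 in FFA, 3.42 to 5.47 in FCL, 4.42 to 5.88 in FCM and 2.77 to 5.62 in FCH. Most of each sum was CSF1R, whose means were 1.70 TPM in NC and 3.92 in FFA, against mean sums of 2.15 and 4.52. The sums therefore follow that gene and not the marker set. Below the minimum for testing, CD14 had means of 0.19 TPM in NC and 0.14 in FFA, and LYZ 0.193 and 0.38.

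Of the regulators, GRN and TFE3 rose and TFEB did not pass the test. GRN was at 432, 478 and 444 TPM in NC and at 1019, 837 and 989 TPM in FFA, up by 1.07 on the log2 scale (SE 0.148, adjusted p = 0.000408 by limma). TFE3 was at 66.5, 74.6 and 72.4 TPM in NC and at 129, 101 and 154 TPM in FFA, up by 0.82 on the log2 scale (SE 0.155, adjusted p = 0.00453 by limma). TFEB was at 8.87, 11.3 and 9.15 TPM in NC and at 13.2, 10.2 and 13.3 TPM in FFA. The TFEB groups overlapped through FFA replicate 2, and the log2 change was 0.29 (adjusted p = 0.301 by limma). In every library the TPM of TFE3 were several times those of TFEB. Activity of both factors depends on where the protein sits in the cell, which RNA does not show.

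**Figure D2:**
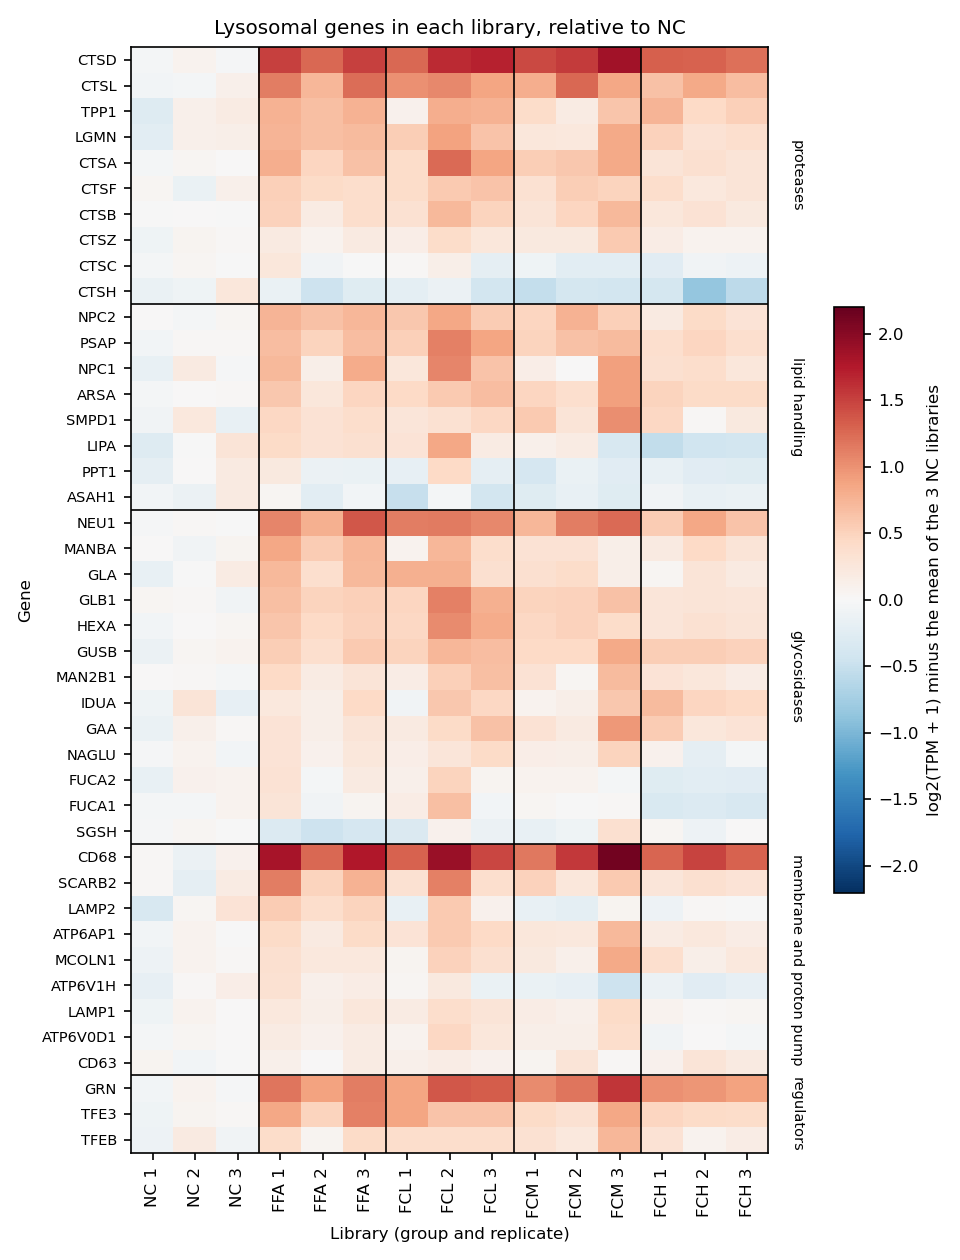
Each row is 1 of the 43 tested lysosomal genes and each column 1 library. Colour is log2(TPM + 1) minus the mean of the 3 NC libraries, red for higher and blue for lower, with genes sorted by the change in FFA within each class. CTSD, CD68, NEU1 and GRN are red in all 12 libraries given fatty acids, and CTSH and ASAH1 pale or blue in most.

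**Figure D3:**
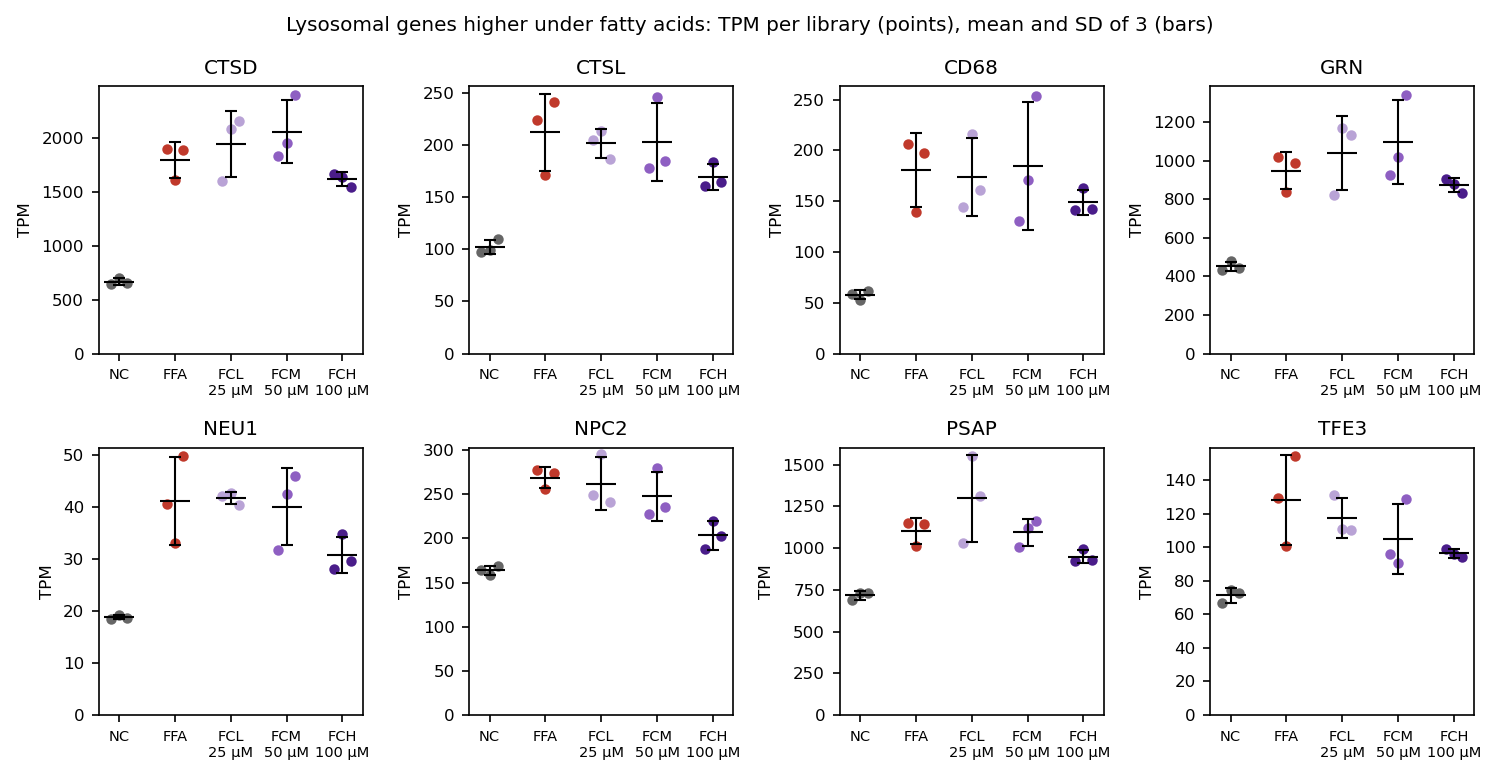
TPM in each library (points) with the mean and SD of 3 (bars), by group, for the 8 lysosomal genes that were called in FFA against NC under every alternative setting and every omission of 1 library. The y axes start at 0 and differ between genes. In each gene every library given fatty acids lies above the 3 NC libraries, and the FCH mean is the lowest of the 4 groups given fatty acids.

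The count of calls in FFA against NC changed with the library left out. Without FFA replicate 1 or without FFA replicate 3 the count was 8, without NC replicate 1 it was 10 and without NC replicate 2 it was 11, and the largest count with 1 library left out was 22. The share of all genes called higher moved too, from 5.47% in the full fit to 2.72%, 2.61%, 2.79% and 3.56% in these 4 omissions. Without FCM replicate 3 it was 8.47%. The 8 members called under all 11 alternative settings and all 15 omissions were CTSD, CD68, CTSL, GRN, NEU1, NPC2, PSAP and TFE3. The other 10 lost the call in at least 1 of them, most often CTSF, which was called in 6 of 11 settings and 3 of 15 omissions.

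Other lysosomal genes were taken from 5 lists that leave the members out. Of 76 tested among 90 listed, 5 rose and 1 fell in FFA against NC, where 5.47% of all genes tested rose and 1.91% fell. Their median log2 change was 0.08, against 0.06 for all genes tested. The lists were written with earlier results of these data known. Among 21 other hydrolases and activators, 2 rose and 0 fell, and SCPEP1, a serine carboxypeptidase, had a log2 change of 0.77. Among 17 other membrane proteins 0 rose, and LAMP3, a LAMP family protein of late endosomes, fell by 0.94 on the log2 scale, from 7.48, 8.42 and 10.1 TPM in NC to 4.17, 3.12 and 4.85 TPM in FFA. Of 15 other pump subunits, ATP6V1G1 rose (0.65). Of 9 genes that sort enzymes to the lysosome, GNPTG, a subunit of the enzyme that makes the mannose 6-phosphate tag, rose (0.68). Of 14 genes for mTORC1 itself, its docking at the lysosome or the transcription factor MITF, the Rag GTPase RRAGA rose (0.73). The count of 6 fell to 1 without FFA replicate 1, to 2 without NC replicate 1 or NC replicate 2 and to 3 without FFA replicate 3, and was 10 without FCM replicate 3. In the same order, 2.72%, 2.79%, 3.56%, 2.61% and 8.47% of all genes were called higher. The shares called lower were 0.848%, 1.13%, 0.959%, 0.698% and 2.99%.

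At 25 µM C3R most members lay slightly above their level under fatty acids alone, but none passed the test. In FCL against FFA, 0 members rose and 0 fell by limma, where 0% of all genes rose and 0.00772% fell. At an unadjusted p under 0.05 the counts were also 0 and 0, where 1.6% of all genes were higher and 3.55% lower. The median log2 difference was 0.07, against -0.01 for all genes tested. Of the 43 members 30 were above 0, where 47.7% of all genes were. Single members ranged from -0.32 for MANBA to 0.26 for SGSH, with SEs between 0.0937 and 0.244. CTSD was at 1596, 2083 and 2161 TPM in FCL, and FCL replicate 1 held less of it than any FFA library while the other 2 held more than any. FCL replicate 2 had the highest summed share of all libraries, at 1.03%.

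At 50 µM the picture by test was the same, and the log2 differences of single members ranged more widely, from -0.58 to 0.41. In FCM against FFA, 0 members rose and 0 fell, where 0.0695% of all genes rose and 1.83% fell. At an unadjusted p under 0.05, 1 member was higher and 4 were lower, where 2.83% of all genes were higher and 16.3% lower. The 1 higher was SGSH, with a log2 difference of 0.41. The 4 lower were LAMP2 (-0.58), MANBA (-0.46), ATP6V1H (-0.46) and CTSC (-0.25). LAMP2, the receptor of chaperone-mediated autophagy, was at 15.9, 14.1 and 15.3 TPM in FFA and 9.33, 8.94 and 11.1 TPM in FCM. The groups did not overlap, and the adjusted p was 0.111 by limma. Under median-of-ratios rescaling LAMP2 was called lower and SGSH higher, where 1.5% of all genes were called higher and 4.7% lower. With array weights 1 member was called higher and 11 lower, where 4.72% of all genes were called higher and 25.9% lower. Without FCL replicate 2, ATP6V1H was called lower at an adjusted p of 0.0499 by limma. The median log2 difference of the members was -0.01, against -0.07 for all genes tested. FCM replicate 3 was the highest FCM library for CTSD, at 2394 TPM against 1832 and 1952, and for GRN, at 1341 TPM against 927 and 1020. Outside the members, 3 genes of the other lysosomal lists fell in this comparison: the pump subunits ATP6V1D and ATP6V1A and the sialomucin CD164, at log2 changes of -0.92, -0.88 and -0.96. They lie outside the naming rule and were picked after their values were seen.

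At 100 µM most members lay below their level under fatty acids alone, but none passed the test. In FCH against FFA, 0 members rose and 0 fell by limma, where 0.108% of all genes rose and 0.0849% fell. At an unadjusted p under 0.05, 14 members were lower and 1 was higher, where 10.8% of all genes were lower and 4.25% higher. The median log2 difference was -0.21, against -0.07 for all genes tested, and 37 of the 43 were below 0. All 3 FCH libraries lay below all 3 FFA libraries in 20 members (22.4% of all genes) and above them in 2, SGSH and IDUA (11% of all genes). By class, the median log2 difference was -0.18 for proteases, -0.21 for lipid handling, -0.27 for glycosidases, -0.19 for membrane and pump proteins and -0.12 for regulators. The members' summed share was 0.773% ± 0.0142 in FCH (SD, n = 3), and 1 FCH library lay inside the FFA range of 0.774% to 0.903%. With array weights, which let libraries count unequally, 1 member was called higher and 24 lower, where 7.38% of all genes were called higher and 18.8% lower. In a fit on the FFA and FCH libraries alone 4 were called lower (LAMP2, ATP6V1H, LIPA and NPC2), where 1.52% of all genes were called higher and 4.19% lower. Both fits, the SD of the FCH share and the counts without overlap lean on the spread within FCH. That spread can be too small because FCH replicate 3 was batch-adjusted. LIPA was also called lower without FCL replicate 2 and without FCM replicate 3.

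CTSD, GRN and CD68 overlapped FFA at 100 µM. CTSD was at 1668, 1638 and 1544 TPM in FCH, a log2 difference from FFA of -0.15, and FCH replicates 1 and 2 lay above FFA replicate 2. GRN was at 903, 879 and 832 TPM (-0.12), and CD68 at 141, 163 and 143 TPM (-0.26). NPC2 was at 188, 220 and 203 TPM in FCH, below every FFA library and above every NC library, with a log2 difference from FFA of -0.40 (SE 0.109, adjusted p = 0.109 by limma). TFE3, at 98.8, 95.9 and 93.9 TPM, also lay between the 2 groups (-0.39, adjusted p = 0.258 by limma). PSAP was at 922, 997 and 929 TPM (-0.21) and NEU1 at 28.1, 34.8 and 29.7 TPM (-0.39). FUCA2 was at 34.8, 35.5 and 35.1 TPM in FCH, below the lowest library of both FFA (40.8 TPM) and NC (37.3 TPM), with a log2 difference from FFA of -0.41 (adjusted p = 0.168 by limma). GUSB (0.04), ARSA (0.00) and CD63 (0.09) stood at about their FFA means.

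**Figure D4:**
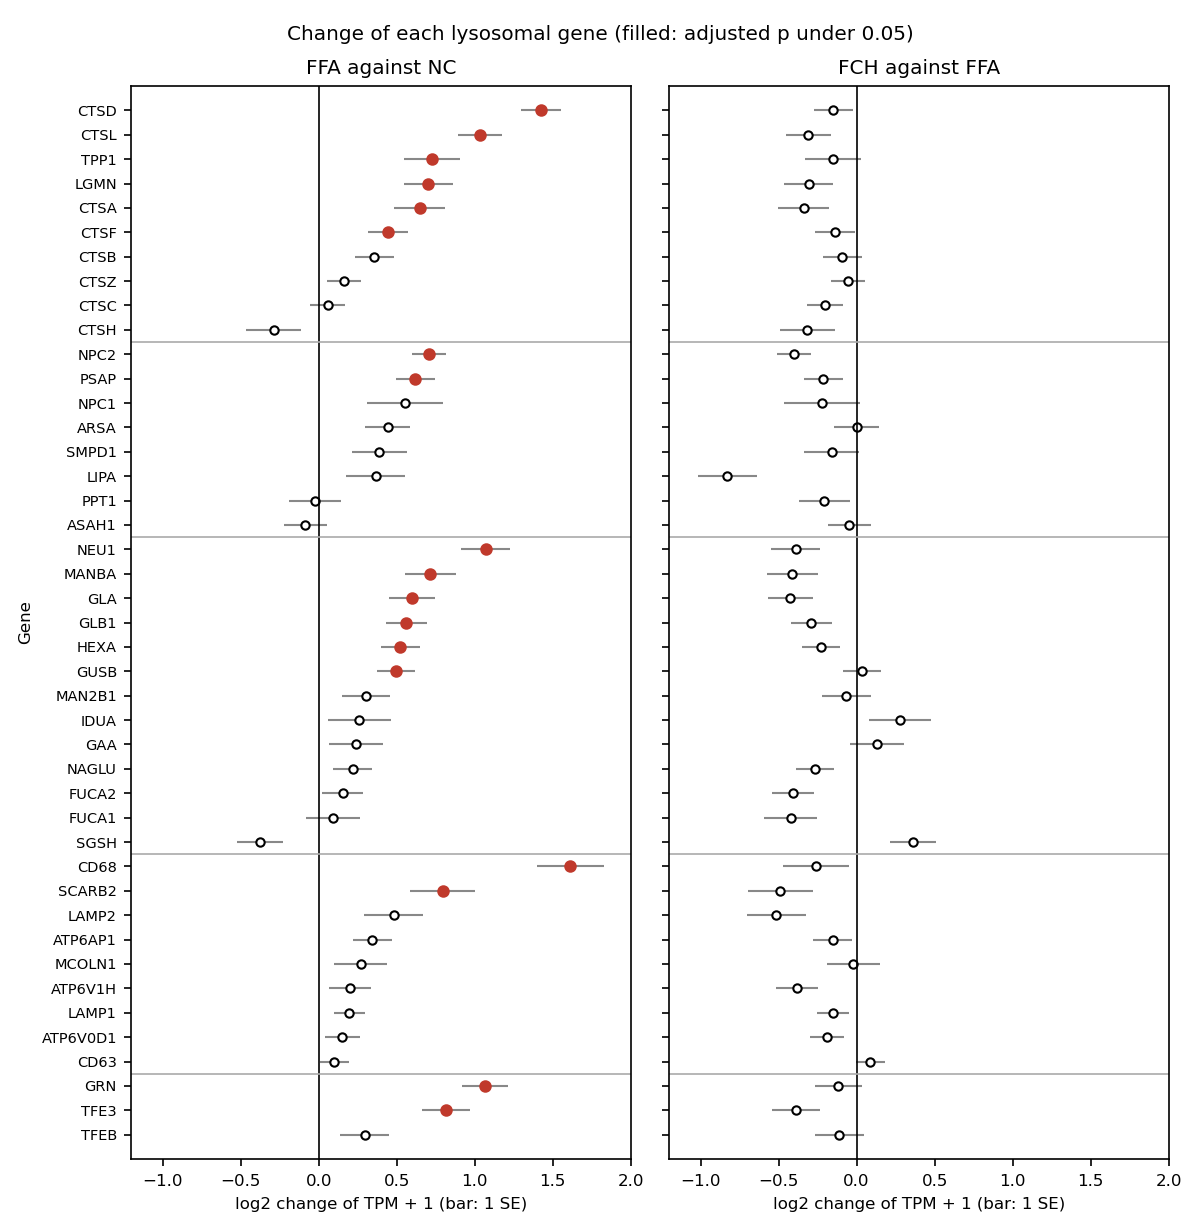
Log2 change of TPM + 1 for each of the 43 tested members, in FFA against NC (left) and FCH against FFA (right). Points are the fitted change, bars 1 SE, and filled points have an adjusted p under 0.05. On the left 18 points are filled, all above 0, and on the right 37 of the 43 points lie below 0 and none is filled.

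The log2 differences in the C3R comparisons varied with the base composition of the genes. Across the 43 members, the log2 difference correlated with the GC content of the gene's longest transcript at a Spearman rho of 0.047 for FFA against NC, 0.446 for FCL, 0.778 for FCM and 0.593 for FCH against FFA. Across the 12485 genes with a GC value the same rhos were 0.024, 0.389, 0.612 and 0.381. For the C3R dose slope the rho was 0.565 across the members and 0.367 across those genes. For FCL, FCM and FCH against NC it was 0.215, 0.454 and 0.391 across the members and 0.270, 0.503 and 0.343 across those genes. These are correlations across genes that share libraries, not across replicates. Single libraries of 1 group also differed in how their deviation from the gene means correlated with GC content. That rho ran from -0.491 to -0.0178 in NC, -0.406 to -0.205 in FFA and -0.254 to 0.403 in FCL. In FCM it ran from 0.301 to 0.562 and in FCH from 0.0462 to 0.318. After each library's trend over GC content and length was removed, LIPA and NAGLU were called lower in FCH against FFA, where 0.697% of all genes were called lower. The labels number FCM replicate 3 and the FCH libraries 12 to 15, and FCH and that run of numbers cannot be told apart except through FCM replicate 3.

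The C3R groups were also compared with NC. These comparisons share their 3 NC libraries with FFA against NC, so each is given by its own values. In FCL against NC, 18 members rose and 0 fell, where 6.51% of all genes rose and 2.56% fell, and the median log2 difference was 0.44. In FCM against NC, 16 rose and 0 fell, where 6.34% rose and 6.7% fell, with a median of 0.40. In FCH against NC, 6 rose and 0 fell, where 3.02% rose and 1.98% fell, with a median of 0.26. The 6 were CTSD, CD68, GRN, CTSL, NEU1 and GUSB, with log2 changes of 1.27, 1.35, 0.95, 0.72, 0.68 and 0.53. All 3 FCH libraries exceeded all 3 NC libraries in 27 members (19.1% of all genes) and lay below them in 5 (15.6% of all genes): LIPA, FUCA1, FUCA2, CTSH and CTSC. Both counts can be too high because FCH replicate 3 was batch-adjusted. With array weights 23 rose and 6 fell in FCH against NC, where 16.7% of all genes rose and 22.8% fell. With GC and length trends taken out 9 rose and 2 fell, where 5.8% of all genes rose and 4.77% fell. When the fit held a separate term for libraries 12 to 15, 0 members were called in FCH against NC and their median became -0.04. With that term 0.201% of all genes were called higher and 0.216% lower, and the median of all genes was -0.19. Without FCM replicate 3 the FCH count was 10 and the FCM count 10, and without NC replicate 3 the FCM count was 8. The shares of all genes called higher and lower were 5.83% and 3.76%, 3.51% and 4.31%, and 3.44% and 2.21%, in that order.

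LIPA was the 1 member with a called C3R dose slope. It encodes the lysosomal acid lipase introduced above, and its loss causes lipid storage in the liver. LIPA was at 23.6, 28.8 and 35.3 TPM in NC and at 39.1, 36.2 and 37.0 TPM in FFA. With C3R it was at 35.8, 52.9 and 32.8 TPM in FCL, at 31.4, 32.9 and 22.4 TPM in FCM and at 19.5, 21.0 and 21.5 TPM in FCH. The FCH libraries were below every other library of the series, and FCL replicate 2 was the highest of all. The slope was -0.92 on the log2 scale per 100 µM over the 12 libraries given fatty acids (SE 0.181, adjusted p = 0.0481 by limma). In FCH against FFA the log2 difference was -0.83 (SE 0.187, adjusted p = 0.0783 by limma). Over all members 0 slopes rose and 1 fell, where 0.162% of all genes rose and 0.208% fell. At an unadjusted p under 0.05, 17 members had a falling and 0 a rising slope, where 11% of all genes had a falling and 4.55% a rising one. The median slope was -0.25, against -0.08 for all genes tested, and 38 of the 43 were below 0. After LIPA the steepest slopes belonged to FUCA1 (-0.50), LAMP2 (-0.49), GLA (-0.49), SCARB2 (-0.48) and FUCA2 (-0.46). The LIPA call was close to the threshold: it held in 3 of 11 alternative settings and in 3 of 12 omissions of 1 library, those of FFA replicate 2, FCL replicate 2 and FCM replicate 3. Its slope stayed below 0 in all of them, from -0.98 to -0.29, the latter per step with the dose taken as a rank, and it was -0.32 with the term for libraries 12 to 15.

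**Figure D5:**
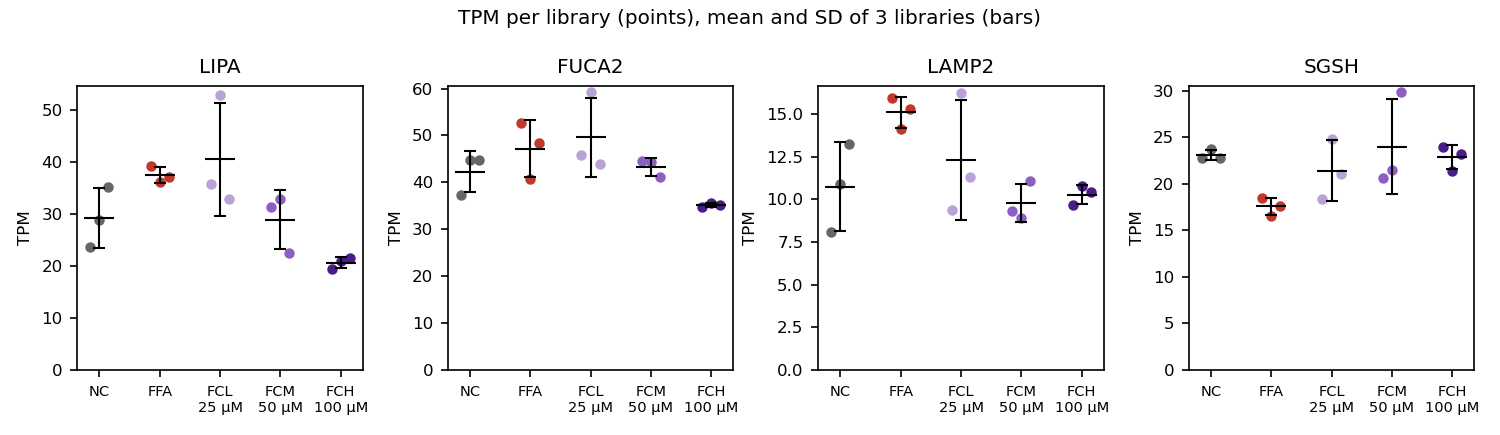
TPM in each library (points) with the mean and SD of 3 (bars), by group, for LIPA and for FUCA2, LAMP2 and SGSH. The y axes start at 0. The 3 FCH points of LIPA, between 19.5 and 21.5 TPM, lie below all other libraries, and SGSH runs the other way, lowest in FFA at 16.6 to 18.5 TPM.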

How the data were processed

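RNA was sequenced from 15 cultures, 3 in each of 5 groups, after poly(A) selection with a stranded Illumina kit, per the labels' protocols. The deposited values are TPM per gene, which the authors estimated with RSEM from HiSat2 alignments to the human genome of Ensembl, per the series' design text. Tool versions, annotation release, genome build and strand use: each is not given in the sources used here. In 12775 genes the values carried a mean-only batch adjustment of FCH replicate 3, recovered from offsets shared by the other 14 libraries, and the deposited values were used.

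Genes with at least 1 TPM in at least 3 libraries were tested on log2(TPM + 1), a scale that understates changes of low genes, with limma 3.58.1 in R 4.3.3. All 15 libraries entered 1 fit with a mean per group and a mean-variance trend. The dose slope used the 12 libraries given fatty acids, per 100 µM. Tests were two-sided, adjusted by Benjamini-Hochberg over 12950 genes and called at an adjusted p under 0.05. The members and lists were chosen with earlier results of these data known, so the direction under fatty acids is not independent evidence.

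Named in every library were the 3 members of each class with the smallest p in FFA against NC, TFEB, TFE3 and members called with C3R. From each list of other lysosomal genes up to 3 called genes were named, and 1 of them is not reported here. Members outside the rule are given where a count or group difference needed them. GC content came from GENCODE 29 transcripts and promoters from RefSeq GRCh38.p14. Alternatives changed 1 step at a time: the pseudocount (0.1), the filter (none, or 5 TPM on average), the scaling (median of ratios, quantiles, GC and length trends removed), the library weights, the groups fitted (compared groups only), the dose scale (ranks), undoing the batch adjustment, adding the replicate number or a term for libraries 12 to 15, and leaving out each library. The replicate numbers in the labels were not found to pair libraries.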

Additional observations from a re-analysis of the deposited data

How the results depend on the processing

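TPM carry no depth, so no counting interval could be given, and FCH replicate 3 adds less than a full replicate because its values were adjusted. In FFA against NC, the count of 18 members lay between 15 and 23 under the other 11 settings, and between 8 and 22 with 1 library left out. Over all genes the share called higher ran from 1.68% to 12.6% under those settings. With 1 library left out it ran from 2.61% to 8.47%. The other counts moved most with array weights, to 1, 12 and 25 for FCL, FCM and FCH against FFA. Against NC they were 30, 29 and 29, with 23 for the dose slope and 18 for the other lysosomal genes. In that order, the shares of all genes called higher and lower against FFA were 1.78% and 4.96%, 4.72% and 25.9%, and 7.38% and 18.8%. Against NC they were 18.7% and 18.2%, 14.5% and 30.8%, and 16.7% and 22.8%. They were 7.59% and 14.1% for the slope and 12.6% and 7.3% for FFA against NC, the comparison of the other lysosomal genes. The fit on the compared groups alone gave 4 for FCH against FFA and 11, 9 and 15 for FCL, FCM and FCH against NC. It called 1.52% of all genes higher and 4.19% lower in FCH against FFA. Against NC the shares were 2.73% and 0.78% for FCL, 1.88% and 1.63% for FCM and 7.06% and 5.31% for FCH. Median-of-ratios rescaling gave 2 for FCM against FFA and 11 for FCH against NC, and quantile normalisation gave 2, 11 and, for FCH against FFA, 1. Over all genes, rescaling called 1.5% higher and 4.7% lower in FCM against FFA and 5.02% and 3.28% in FCH against NC. Quantile normalisation called 1.25% and 2.77%, 5.38% and 4.25% and, for FCH against FFA, 0.432% and 0.309%. Removing the GC and length trend gave 2 for FCH against FFA, 11 for FCH against NC and 13 for the other lysosomal genes. It called 0.777% of all genes higher and 0.697% lower in FCH against FFA. The shares were 5.8% and 4.77% in FCH against NC and 8.51% and 6.5% in FFA against NC. The term for libraries 12 to 15 gave 10 for FCM against NC, 0 for FCH against NC and 10 for the other lysosomal genes. It called 3.49% of all genes higher and 4.18% lower in FCM against NC. The shares were 0.201% and 0.216% in FCH against NC and 8.35% and 2.95% in FFA against NC. This term also moved the median of all genes by -0.20 in FCH against FFA, -0.19 in FCH against NC and -0.20 in the slope. The 1 slope call, LIPA, became 0 with no filter, median-of-ratios rescaling, quantile normalisation, the batch adjustment undone, dose as a rank, the term for libraries 12 to 15 and the replicate block. With the GC and length trend removed the 1 slope call was NAGLU. Without a filter the other lysosomal genes fell to 2, where 1.68% of all genes were called higher and 0.633% lower. The causes were not tested. With 1 library left out, counts were 0 for FCL and 0 or 1 for FCM and FCH against FFA and for the slope. The other lysosomal genes had 1 to 10. FCL, FCM and FCH against NC had 13 to 24, 8 to 18 and 4 to 10. Against NC, 3.11% to 10.9%, 3.44% to 7.81% and 1.45% to 5.83% of all genes were called higher.

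Of the values of named genes under the other settings, 219 kept direction and side of the threshold, 18 lost the call, 5 gained one and 0 changed sign. Libraries with the same replicate number did not deviate together: over 30 pairs the median correlation of their deviations was -0.0358, and 1 pair exceeded 0.1. With the replicate block as a term, FFA, FCL, FCM and FCH against NC gave 16, 17, 15 and 6. The shares of all genes called higher and lower were 4.56% and 1.49%, 5.45% and 2.06%, 5.21% and 5.07%, and 2.56% and 1.47%. The counts were 0 for each C3R group against FFA and for the slope, and 5 for the other lysosomal genes.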
